A study of Mus musculus with 11 samples.

Results

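The nuclear-encoded subunit genes of the oxidative phosphorylation complexes were followed across 11 poly(A) RNA-seq libraries of mouse colon cancer organoids. A row of the count table was a member where its gene name begins with Ndufa, Ndufb, Ndufc, Ndufs, Ndufv, Uqcr, Cox4, Cox5, Cox6, Cox7, Cox8 or Atp5, or is Sdha, Sdhb, Sdhc, Sdhd or Cyc1, with the Ndufaf assembly factors left out. This gave 87 of 23224 rows: 38 of complex I, 4 of complex II, 9 of complex III, 19 of complex IV and 17 of complex V. Of these, 81 passed the filter on low counts and entered the test among 13720 genes. The 6 that did not pass, Cox4i2, Cox6a2, Cox6b2, Cox7b2, Cox8b and Cox8c, had 0 to 3 counts in every library. The name rule also took in Atp5s, Atp5sl and Cox4nb, which are not subunits (they are now called Dmac2l, Dmac2 and Emc8). Counts without these 3 are given beside the main ones.

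All organoids carried the genotype that the labels give as AKP. The naive group (3 libraries) had not been transplanted. The C57Bl6 group (3) and the RAG2KO group (3) were organoids grown out of primary tumours, which naive organoids had formed in the colon of C57Bl6 mice or of RAG2KO mice, a strain without mature T and B lymphocytes. According to the design text these cultures were passaged until they held cancer cells alone. A constitutive SOX17OE line (1 library) and an inducible SOX17OE line (1) were naive organoids transduced with lentiviral constructs, the second responsive to doxycycline. Neither doxycycline treatment, nor whether a line is 1 clone, nor the age and sex of the mice, is stated in the labels. They also do not say that replicates were separate cultures or mice, so a p-value here reflects the spread between these libraries, which may be technical. Tumour-derived against naive asks what differs after growth in a mouse, and the 2 recipient strains differ in adaptive immunity.

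Oxidative phosphorylation takes electrons from NADH at complex I (NADH dehydrogenase) and from succinate at complex II (succinate dehydrogenase), passes them through ubiquinone to complex III (the cytochrome bc1 complex), and from there through cytochrome c to complex IV (cytochrome c oxidase). Complexes I, III and IV pump protons across the inner mitochondrial membrane, and complex V (ATP synthase) uses the gradient to make ATP. Complex I has a catalytic core and a larger set of accessory subunits. Complexes I, III, IV and V also hold subunits encoded by mitochondrial DNA, which were not analysed here. In intestinal epithelium, mitochondrial respiration is known to rise as cells leave the crypt base and differentiate.

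The promoters of these genes are known for binding sites of the factors NRF1, GABPA (an ETS family protein), YY1 and ERR-alpha. RefSeq promoter sequences (GRCm38.p6, 250 bases before to 50 after the gene's start) were found for 70 members. The NRF1 core GCGCANGCG, searched on both strands, was present in 20 of the 70 (28.6%) and in 7.03% of all 27025 genes with a promoter. The ETS core CCGGAAG was present in 16 members (22.9%, against 9.93% of all genes), the YY1 core AAGATGGC in 11 (15.7%, against 3.19%) and the ERR core TCAAGGTCA in 2 (2.86%, against 0.466%). A match is a description of these letters and not a measured site. The following stretches upstream of the start are shown because they carry such a core in a gene whose values are described below; the core, on either strand, is in capitals and the stretch is read along the gene's strand.
Sdhd (NRF1 core, chr9:50603895-50603954, - strand): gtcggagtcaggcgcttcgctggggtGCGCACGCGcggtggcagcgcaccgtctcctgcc
Cox6a1 (NRF1 core, chr5:115349042-115349101, - strand): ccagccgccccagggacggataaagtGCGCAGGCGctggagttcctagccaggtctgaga
Atp5h (NRF1 core, chr11:115420027-115420086, - strand): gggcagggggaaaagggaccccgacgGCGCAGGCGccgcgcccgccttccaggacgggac
Uqcrh (ETS core, chr4:116075071-116075106, - strand): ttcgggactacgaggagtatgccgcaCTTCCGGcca
Cox6b1 (ETS core, chr7:30626115-30626168, - strand): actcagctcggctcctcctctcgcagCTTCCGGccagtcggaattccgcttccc
Atp5j (YY1 core, chr16:84835032-84835090, - strand): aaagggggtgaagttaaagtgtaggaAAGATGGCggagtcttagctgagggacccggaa
The Atp5j stretch also ends in the first bases of an ETS core that lies 61 bases before the start, so that both cores stand close together in that promoter.

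Library totals lay between 14109182 and 22154456 expected counts. Sox17 stood at 0.0438 to 0.214 CPM (counts scaled to a common library total) in the naive libraries, 12.4 to 74.3 in the C57Bl6 group, 15.4 to 24.4 in the RAG2KO group, 72.7 in the constitutive line and 4.78 in the inducible line. Rn45s, a ribosomal RNA precursor that poly(A) selection should largely remove, took 6.56 to 8.54% of the counts in the RAG2KO libraries, 6.39% in the constitutive line, 3.71% in the inducible line and 2.21 to 4.99% in the naive and C57Bl6 libraries, so the RAG2KO group does not overlap naive or C57Bl6 in this share. All 7 colon epithelium markers were detected, with summed levels of 6220 to 7050 CPM in naive, 5080 to 6650 in C57Bl6, 5080 to 5770 in RAG2KO, 3960 in the constitutive and 4990 in the inducible line. In every library the summed levels of the lists for fibroblasts (7 genes), endothelium (4), leukocytes (6), striated muscle (7) and brown fat (2) were at most 8.93, 9.97, 15.8, 18.6 and 13.1 CPM, with Myh6 at 0 throughout. In bulk RNA, fewer cells of a type and less RNA per cell cannot be told apart.

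A minority of subunit genes, mostly accessory subunits of complex I and small subunits of complexes III, IV and V, were higher in organoids from RAG2KO recipients than in naive organoids or in organoids from C57Bl6 recipients. Against naive, 18 members rose and 2 fell in the RAG2KO group (17 and 2 without the 3 genes that are not subunits), where 16.0% of all genes tested rose and 13.3% fell. Scaled by library totals in place of TMM the counts were 15 and 5, beside 13.9% and 16.9% of all genes. Without naive replicate 2 they were 8 and 0, beside 8.71% and 6.2% of all genes. Without naive replicate 3 they were 10 and 2, beside 11.1% and 8.6%. In the main fit the share of members that rose, 22.2%, is modestly above the 16.0% of all genes. The share that fell, 2.47%, is below the 13.3%. Against the C57Bl6 group, 33 rose and 1 fell (32 and 1), where 11.8% and 12.2% of all genes did (14.7% and 8.38% with upper quartile scaling, 9.4% and 16.5% with library totals), so 40.7% of the members were higher. The count of members that rose was 18 without C57Bl6 replicate 1 and 17 without C57Bl6 replicate 3, where 9.08% and 6.69% of all genes rose. The C57Bl6 group against naive gave no member that rose and 6 that fell, beside 9.50% and 5.85% of all genes. Leaving out naive replicate 1 or 2 left none of those falls, and leaving out C57Bl6 replicate 2 or 3 gave 2 or 1. In these 4 fits 3.11%, 2.61%, 4.04% and 3.49% of all genes fell. In the mean of the lines with SOX17OE constructs, 20 members rose against naive and none fell (19 and none). Of all genes, 6.77% rose and 5.92% fell. The rises numbered 2 and 4 without naive replicate 2 or 3, where 1.84% and 2.34% of all genes rose. Without the constitutive or the inducible line, 1 library was left, and the members' median log2 fold change was 0.52 or 0.23. All 3 comparisons with naive use the same 3 naive libraries. The members' median log2 fold change was 0.27 for RAG2KO against naive (all genes 0.02), 0.42 for RAG2KO against C57Bl6 (all genes -0.001), -0.18 for C57Bl6 against naive (all genes 0.02) and 0.40 for the SOX17OE mean (all genes -0.01). Tests are edgeR's quasi-likelihood test with Benjamini-Hochberg adjustment over all 13720 genes and a threshold of 0.05.

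**Figure D1:**
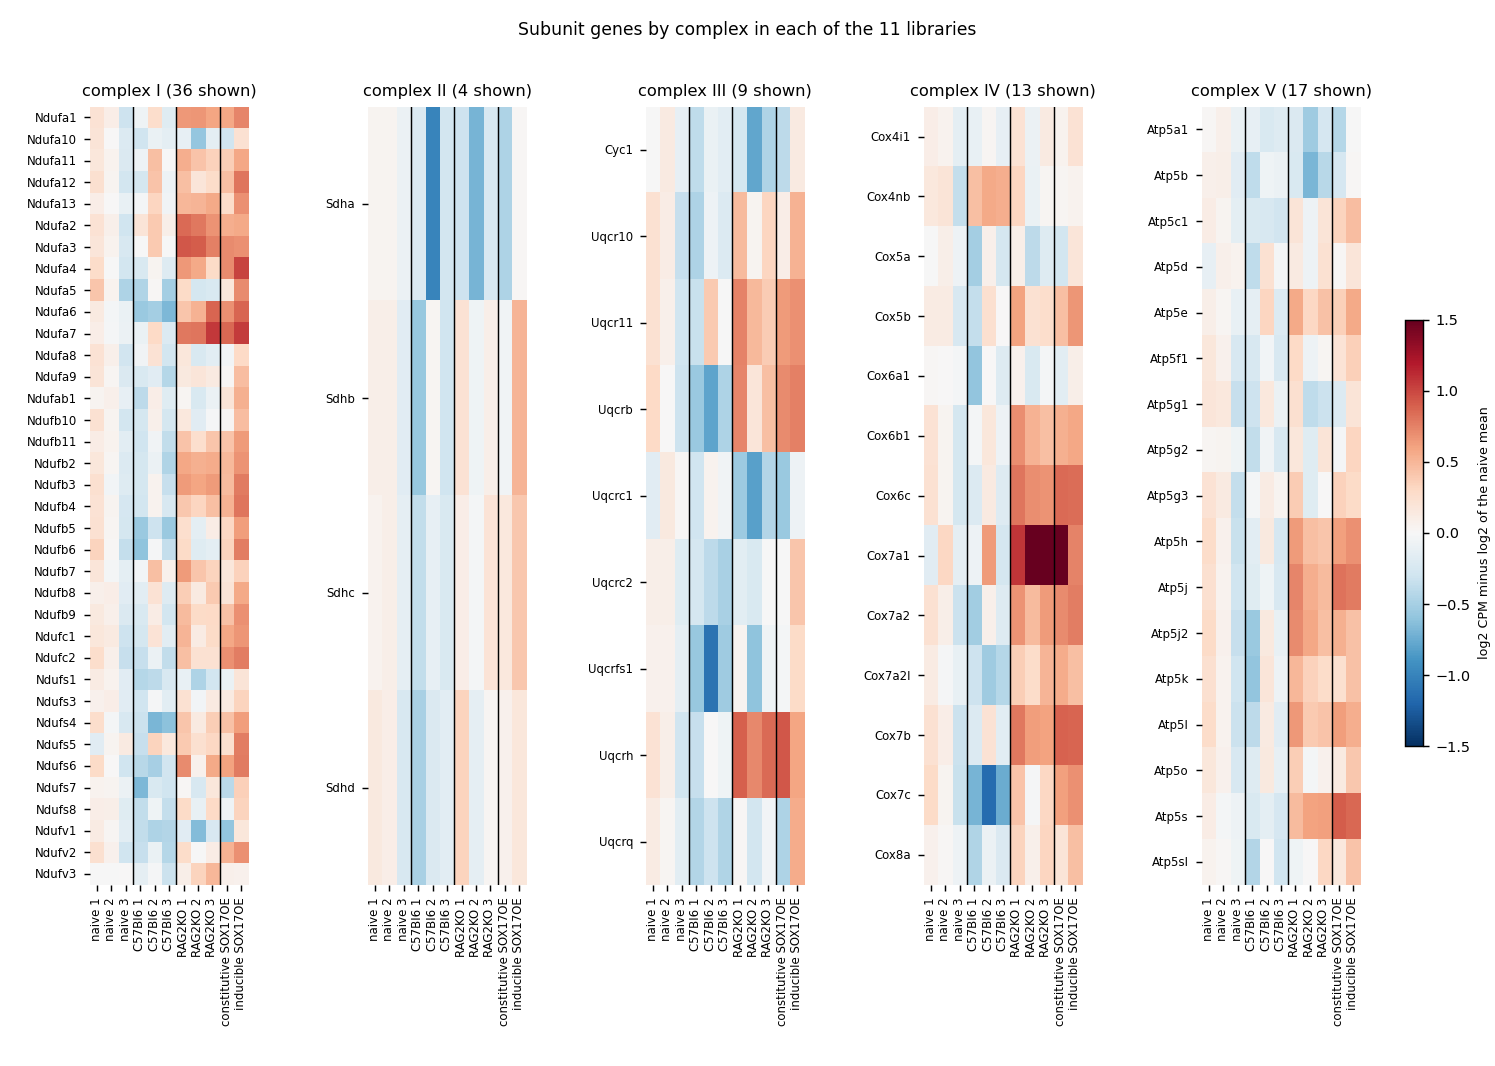
Each row is 1 of the tested members and each column a library, grouped as naive, C57Bl6, RAG2KO and the 2 SOX17OE lines; colour gives log2 CPM minus log2 of the naive mean, on a scale that stops at 1.5 in either direction. Ndufa4l2, with 0 to 28 counts, and 1 complex I core subunit are left out. The RAG2KO and SOX17OE columns are red for many complex I and IV members and mixed or pale for complex II, and C57Bl6 replicates 1 and 3 are mostly blue.

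The rise was uneven among libraries of 1 group. Relative to the naive mean, the members' median log2 level was 0.37, 0.08 and 0.28 in the 3 RAG2KO libraries, -0.30, 0.01 and -0.21 in the C57Bl6 libraries, 0.24 in the constitutive and 0.54 in the inducible line. The naive libraries themselves stood at 0.16, 0.05 and -0.21, a range as wide as several of the group differences. RAG2KO replicate 2, the lowest of its group, had 44 of 81 members above the naive mean, and the inducible line, the highest library, had 78.

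Transcript length moved with these differences. Most members are short: 49 of the 81 have a transcript of at most 1000 bases, against 933 of the 12956 tested genes with a length. Of all such short genes, 29.9% rose in RAG2KO against naive, 30.0% in RAG2KO against C57Bl6 and 17.8% in the SOX17OE mean, while for the 49 short members the shares were 26.5%, 49.0% and 32.7%. Against naive, the short members of the RAG2KO group thus rose at about the rate of any short gene. Of the 32 longer members, 15.6%, 28.1% and 12.5% rose. Across the 81 members, the fold change in RAG2KO against naive had a Spearman correlation of -0.58 with transcript length, and across 8797 other genes of at least 10 CPM it was -0.33; genes are not independent replicates, and these are descriptions. With a length trend removed from each library, a setting chosen after seeing the data, 11 members rose and 8 fell in RAG2KO against naive. Of all genes, 17% rose and 9.5% fell in that setting. The members' median was -0.03, and 13 of the 20 calls remained. In RAG2KO against C57Bl6, 16 of the 81 members rose and 2 fell, with a median of 0.11, and 16 of the 34 calls remained. Of all 13720 genes, 1578 rose and 1132 fell in that comparison and setting, with a median of 0.05.

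**Figure D2:**
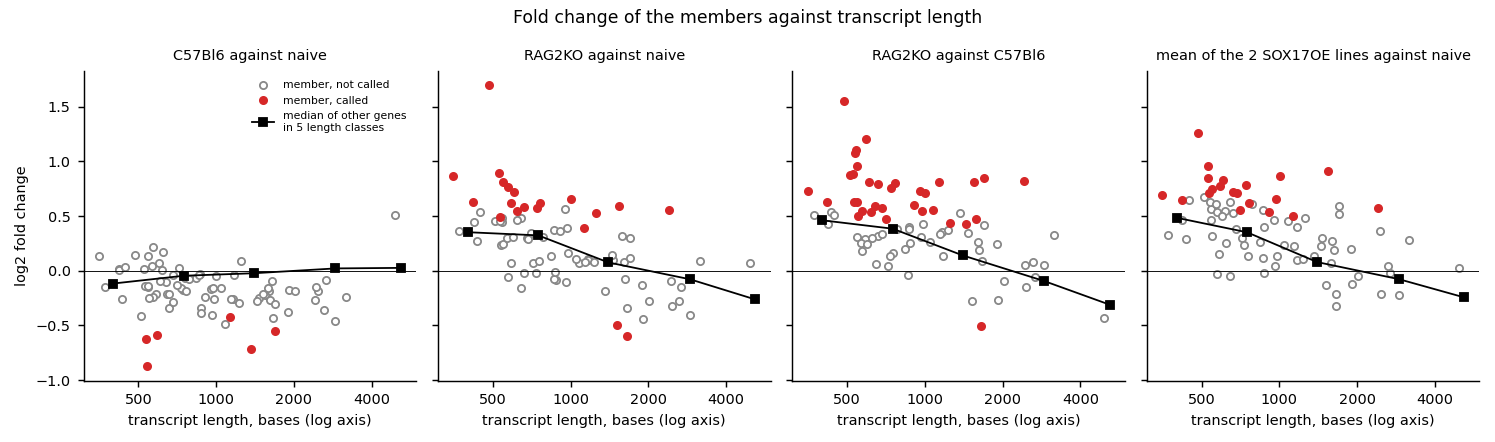
Points are 80 tested members (Ndufa4l2 left out), with transcript length in bases on a log axis and log2 fold change on the other; filled points passed the test. Black squares join the medians of other genes of at least 10 CPM in 5 length classes. In RAG2KO against naive these medians run from 0.35 (up to 500 bases) to -0.26 (over 4000). Called members were picked by their fold change, so their place relative to the line does not test the length trend. In that comparison the median for transcripts up to 1000 bases was 0.37 for members and 0.39 for all tested genes. For longer transcripts it was 0.08 and -0.02.

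Of the 38 members placed in complex I by name, 9 (23.7%, beside 16.0% of all genes) rose in RAG2KO against naive and 18 (47.4%, beside 11.8%) in RAG2KO against C57Bl6. Both counts include Ndufa4, now placed in complex IV, and the others were accessory subunits. Of the 31 members outside the core, 9 rose and none fell against naive, and of the 7 core subunits, Ndufv1 among them, none passed in any of the 4 comparisons. Core medians were -0.01 against naive and 0.27 against C57Bl6, beside 0.35 and 0.48 for the 31 others. The difference between core and other genes was not tested; most core genes also have longer transcripts.

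Ndufa7, an accessory subunit, had 111, 103 and 97.5 CPM in naive, 96.6, 128 and 89.5 in C57Bl6, 180, 181 and 217 in RAG2KO, and 189 and 215 in the constitutive and inducible lines. The RAG2KO and SOX17OE libraries are all above every naive and C57Bl6 library. The fold changes (log2) were 0.89 (SE 0.15, edgeR adjusted p = 0.00304) for RAG2KO against naive, 0.88 (SE 0.15, adjusted p = 0.00489) against C57Bl6 and 0.96 (SE 0.17, adjusted p = 0.00981) for the SOX17OE mean. With the length trend removed the first was 0.48 (edgeR adjusted p = 0.0197) and the second 0.40 (adjusted p = 0.0494). The third was then 0.48 and did not pass (edgeR adjusted p = 0.0519). Ndufa3, a short accessory subunit of the membrane arm, had 89.1, 81.6 and 66.1 CPM in naive, 77.9, 103 and 78.2 in C57Bl6, 150, 148 and 133 in RAG2KO and 129 and 126 in the lines. The RAG2KO and SOX17OE libraries are again above all others, with a log2 rise of 0.86 (SE 0.16, edgeR adjusted p = 0.00371) in RAG2KO against naive. With the length trend removed this rise was 0.34 (edgeR adjusted p = 0.0274). Against C57Bl6 and in the SOX17OE mean Ndufa3 then stood at 0.11 and 0.09 without passing. Ndufa2, an accessory subunit with a thioredoxin-like fold, had 112, 101 and 77.7 CPM in naive, 110, 126 and 102 in C57Bl6, 173, 166 and 153 in RAG2KO and 140 and 142 in the lines. Its RAG2KO libraries are above all others, and it rose by 0.76 on the log2 scale (SE 0.15, edgeR adjusted p = 0.00581) and was also the highest complex I member in C57Bl6 against naive, at 0.22 (adjusted p = 0.367), which did not pass.

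Ndufa6 moved in opposite directions in the tumour groups. This accessory subunit, a member of the LYR motif family, had 137, 122 and 116 CPM in naive, 84.4, 87.7 and 77.8 in C57Bl6, 167, 179 and 229 in RAG2KO and 200 and 229 in the lines. The naive, C57Bl6 and RAG2KO libraries do not overlap, and the lines lie within the RAG2KO range. It fell by 0.58 on the log2 scale in C57Bl6 (SE 0.14, edgeR adjusted p = 0.0203), rose by 0.62 in RAG2KO (SE 0.14, adjusted p = 0.0104), and differed by 1.20 between the tumour groups (SE 0.14, adjusted p = 0.00174), the smallest adjusted p among the members in that comparison. The difference between the tumour groups was 0.74 with the length trend removed (edgeR adjusted p = 0.0107), and the rise against naive then did not pass.

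Ndufb2, an accessory subunit of the membrane arm, had 49.3, 44.7 and 37.8 CPM in naive, 36.4, 41.1 and 31.9 in C57Bl6, 65.3, 63.4 and 64.5 in RAG2KO and 61.3 and 69.9 in the lines. The RAG2KO libraries are above every naive and C57Bl6 one, and it was higher in RAG2KO than in C57Bl6 by 0.82 (SE 0.14, edgeR adjusted p = 0.00449). With the trend removed for a transcript length of 2413 bases the difference was 0.85. That length is of the annotated transcript with the longest coding region. Which transcript is expressed here was not determined, so the last value depends on this choice. Ndufa4, long counted in complex I, had 353, 291 and 241 CPM in naive, 248, 300 and 256 in C57Bl6, 456, 431 and 357 in RAG2KO and 477 and 588 in the lines. All RAG2KO and SOX17OE libraries are above all others, and its rise was 0.49 in RAG2KO against naive (SE 0.16, edgeR adjusted p = 0.0452) and 0.84 in the SOX17OE mean (SE 0.18, adjusted p = 0.0184). With the length trend removed neither passed, at 0.09 (edgeR adjusted p = 0.542) and 0.39 (adjusted p = 0.0635). The Ndufa4 call against naive was lost in 11 of 25 settings. Ndufs4, an accessory subunit of the peripheral arm whose loss gives a Leigh-like disease in mice, had 124, 101 and 86.8 CPM in naive, 81.7, 63.6 and 67.1 in C57Bl6, 137, 113 and 132 in RAG2KO and 139 and 158 in the lines. All C57Bl6 libraries are below all naive ones, with a log2 fold change of -0.55 (SE 0.16, edgeR adjusted p = 0.0427). The gene lies on chromosome 13, which is described further down.

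Ndufv1, the core subunit that binds FMN and takes electrons from NADH, was the lowest complex I member in RAG2KO against naive. It had 194, 181 and 159 CPM in naive, 137, 129 and 131 in C57Bl6, 157, 113 and 151 in RAG2KO, 118 in the constitutive and 200 in the inducible line. The C57Bl6 and RAG2KO libraries are all below the lowest naive library, but neither difference passed (log2 -0.43, edgeR adjusted p = 0.0698, and -0.34, adjusted p = 0.095). Ndufa4l2, a hypoxia-induced relative of Ndufa4, had the largest fitted complex I value and the thinnest data: 3, 5 and 5 counts in naive, 5, 1 and 8 in C57Bl6, 1, 19 and 28 in RAG2KO, 2 in the constitutive and 0 in the inducible line. At 0 to 28 counts no fold is given, and no comparison passed.

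The 4 genes of complex II did not pass in any comparison. Sdha, the flavoprotein, had 365, 367 and 335 CPM in naive, 305, 178 and 294 in C57Bl6, 287, 219 and 301 in RAG2KO, 258 in the constitutive and 359 in the inducible line. Every tumour-derived library is below every naive one, yet the spread within the C57Bl6 group left log2 fold changes of -0.46 (SE 0.20, edgeR adjusted p = 0.157) in C57Bl6 and -0.40 (SE 0.20, adjusted p = 0.155) in RAG2KO. Sdhb, the iron-sulfur subunit, had 165, 165 and 137 CPM in naive, 105, 158 and 126 in C57Bl6, 180, 148 and 165 in RAG2KO and 150 and 220 in the lines. Sdhc, a membrane anchor, had 174, 178 and 153 CPM in naive, 130, 155 and 144 in C57Bl6, 180, 164 and 194 in RAG2KO and 187 and 224 in the lines. Sdhd, the other anchor, had 251, 243 and 192 CPM in naive, 161, 196 and 203 in C57Bl6, 286, 207 and 231 in RAG2KO and 237 and 255 in the lines. For these last 3 the RAG2KO and naive libraries overlap, with log2 fold changes of 0.08 to 0.09 and SEs of 0.12 to 0.16. Summed over the 4 genes, complex II had 955, 953 and 818 CPM in naive and 701, 687 and 767 in C57Bl6, which do not overlap, and 933, 738 and 890 in RAG2KO. Sdha lies on chromosome 13, whose genes were low in C57Bl6 replicate 2, as described further down.

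In complex III, 1 of 9 members (11.1%, beside 16.0% of all genes) rose in RAG2KO against naive. Another 2 (22.2%, beside 13.3%) fell, and 6 did not pass. The hinge protein was the one that rose, and a core protein and cytochrome c1 fell. Uqcrh, the hinge protein beside cytochrome c1, had 299, 272 and 208 CPM in naive, 203, 257 and 246 in C57Bl6, 480, 423 and 465 in RAG2KO and 492 and 386 in the lines. All RAG2KO and SOX17OE libraries are above all naive and C57Bl6 libraries, with a log2 rise of 0.81 against naive (SE 0.16, edgeR adjusted p = 0.00493), of 0.96 against C57Bl6 (SE 0.16, adjusted p = 0.00404) and of 0.75 for the SOX17OE mean (SE 0.17, adjusted p = 0.0228). With the length trend removed these were 0.423, 0.465 and 0.3, and the last did not pass (edgeR adjusted p = 0.129). Uqcrc1, one of the large core proteins, had 248, 309 and 281 CPM in naive, 227, 288 and 269 in C57Bl6, 190, 157 and 205 in RAG2KO, 188 in the constitutive and 265 in the inducible line. It fell by 0.60 on the log2 scale against naive (SE 0.15, edgeR adjusted p = 0.0139) and by 0.50 against C57Bl6 (SE 0.15, adjusted p = 0.0328), the only one of 8 members with a negative value in that comparison that passed. Cyc1, which carries the haem of cytochrome c1, had 267, 294 and 245 CPM in naive, 205, 249 and 241 in C57Bl6, 222, 156 and 194 in RAG2KO, 204 in the constitutive and 294 in the inducible line. Its fall against naive was 0.49 on the log2 scale (SE 0.15, edgeR adjusted p = 0.0335). Both falls were as large with the length trend removed, at -0.66 for Uqcrc1 and -0.58 for Cyc1. Without RAG2KO replicate 2, the lowest library for both, neither fall against naive passed, nor did either without naive replicate 2, and the Uqcrc1 fall against C57Bl6 did not pass without C57Bl6 replicate 2 or 3 or without RAG2KO replicate 1 or 2.

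Uqcrfs1, the Rieske iron-sulfur protein, and Uqcrb, a small subunit at the ubiquinone site, were the complex III members that fell in C57Bl6. Uqcrfs1 had 263, 263 and 228 CPM in naive, 169, 116 and 173 in C57Bl6, 258, 165 and 240 in RAG2KO and 246 and 307 in the lines. Uqcrb had 228, 186 and 150 CPM in naive, 126, 107 and 134 in C57Bl6, 308, 211 and 254 in RAG2KO and 302 and 312 in the lines. In both genes the C57Bl6 libraries are all below the naive ones, with log2 fold changes of -0.72 (SE 0.20, edgeR adjusted p = 0.0348) and -0.62 (SE 0.19, adjusted p = 0.0485). With the length trend removed neither passed, at -0.653 and -0.495 (edgeR adjusted p = 0.0511 and 0.0778). Uqcrb was also 1.08 higher in RAG2KO than in C57Bl6 (SE 0.19, edgeR adjusted p = 0.00494). Uqcr11, a small subunit, was the highest complex III member in C57Bl6, at 164, 148 and 114 CPM in naive and 111, 184 and 140 in C57Bl6 (log2 0.03, adjusted p = 0.944).

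**Figure D3:**
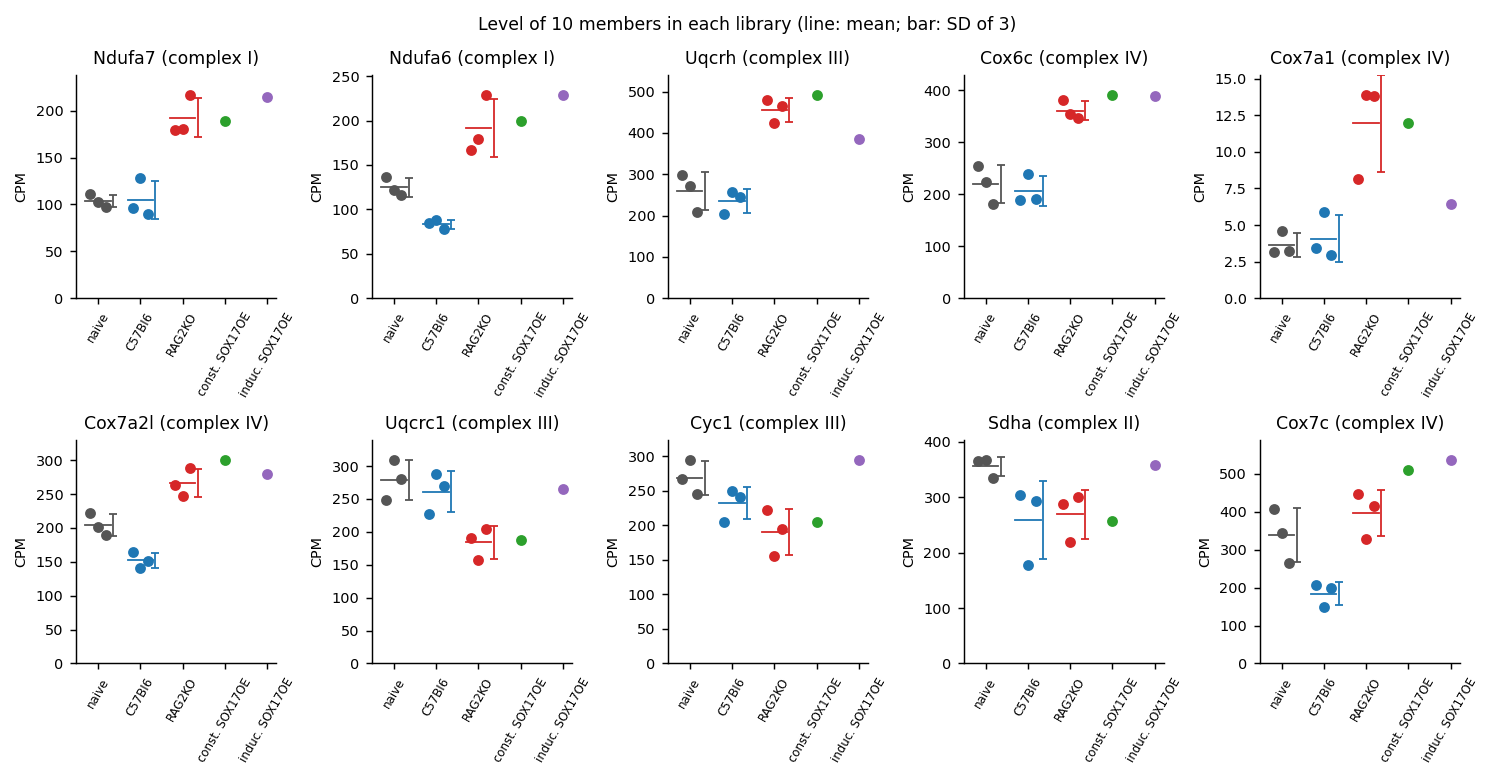
Each point is 1 library, with CPM from 0 on the vertical axis and the 5 groups along the other; lines are means and bars SDs of 3 libraries. Ndufa7, Uqcrh and Cox6c have all RAG2KO and SOX17OE libraries above naive and C57Bl6, Ndufa6 and Cox7a2l are lowest in C57Bl6, and Uqcrc1 and Cyc1 have their lowest group mean of 3 libraries in RAG2KO.

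In complex IV, 6 of the 13 tested members (46.2%, beside 16.0% of all genes) rose in RAG2KO against naive and 8 (61.5%, beside 11.8%) against C57Bl6, and none fell in either. They are small nuclear-encoded subunits that surround the catalytic core. Cox6c had 254, 223 and 181 CPM in naive, 189, 239 and 191 in C57Bl6, 381, 354 and 347 in RAG2KO and 391 and 389 in the lines. The RAG2KO and SOX17OE libraries are all above the others, and the log2 rise was 0.72 against naive (SE 0.15, edgeR adjusted p = 0.00729) and 0.83 in the SOX17OE mean (SE 0.17, adjusted p = 0.0149). Cox6b1, Cox7a2, Cox7b and Cox7a2l rose as well, by 0.39 to 0.66. Of these only Cox7b still passed with the length trend removed. Cox4i1, Cox4nb, Cox5a, Cox5b, Cox6a1, Cox7c and Cox8a did not pass against naive, at -0.15 to 0.37. The lowest, Cox5a, had 204, 218 and 195 CPM in naive and 218, 157 and 180 in RAG2KO, which overlap, and 144, 218 and 171 in C57Bl6 (log2 -0.15 for RAG2KO against naive, SE 0.17, edgeR adjusted p = 0.522).

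Cox7a1, the heart and muscle form of subunit 7a, had the largest fold change of any called member and a low level. It stood at 3.14, 4.60 and 3.24 CPM in naive, 3.41, 5.89 and 2.93 in C57Bl6, 8.15, 13.9 and 13.8 in RAG2KO, 12 in the constitutive and 6.41 in the inducible line. All RAG2KO libraries are above all naive and C57Bl6 ones, with a log2 rise of 1.70 against naive (SE 0.33, edgeR adjusted p = 0.00547) and of 1.55 against C57Bl6 (SE 0.33, adjusted p = 0.0103). The summed striated muscle markers were 2.28 to 3.67 CPM in naive, 2.53 to 12.9 in C57Bl6, 2.90 to 18.6 in RAG2KO, 4.50 in the constitutive and 1.52 in the inducible line. Those of brown fat, which also expresses Cox7a1, were 3.22 to 6.67, 2.08 to 13.1, 5.05 to 11.1, 4.90 and 0.23 CPM. Ckm stood at no more than 0.187 CPM and Ucp1 at no more than 0.0583 CPM in any library, with Myh6 at 0. The sums thus came mostly from other genes of these lists, and the highest muscle sum, 18.6 CPM, was in a RAG2KO library. Whether RNA of such cells adds to Cox7a1 was not tested. The ubiquitous form Cox7a2 kept the higher level per kilobase: 340 against 7.55 CPM per kilobase in naive, 294 against 8.40 in C57Bl6 and 508 against 24.6 in RAG2KO. Cox7a2 had 259, 236 and 177 CPM in naive, 154, 233 and 194 in C57Bl6, 353, 307 and 345 in RAG2KO and 364 and 377 in the lines, a log2 rise of 0.58 against naive (SE 0.18, edgeR adjusted p = 0.0361).

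The tissue-restricted partners of the other complex IV subunits were close to absent. Per kilobase, the naive means were 582 CPM for Cox4i1 and 0.04 for Cox4i2, 507 for Cox6a1 and 0.22 for Cox6a2, and 457 for Cox6b1 and 0.10 for Cox6b2. Cox7b stood at 202 CPM per kilobase with Cox7b2 at 0 counts in all 11 libraries, and Cox8a at 599 with Cox8c at 0 counts in all. Cox8b had 2 counts in the constitutive line and 0 elsewhere. These orders were the same in the C57Bl6 and RAG2KO groups, where each restricted partner was at or below 0.182 CPM per kilobase.

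Cox7a2l, a relative of subunit 7a that helps join complexes III and IV into supercomplexes, fell in C57Bl6 and rose in RAG2KO. It had 222, 202 and 189 CPM in naive, 164, 141 and 151 in C57Bl6, 263, 247 and 289 in RAG2KO and 300 and 279 in the lines. The 3 groups do not overlap, with log2 changes of -0.42 (SE 0.12, edgeR adjusted p = 0.037) and 0.39 (SE 0.12, adjusted p = 0.034) against naive and of 0.81 (SE 0.12, adjusted p = 0.00321) between the tumour groups. With the length trend removed the last was 0.57 (edgeR adjusted p = 0.0129), and neither change against naive passed. Cox7c, a small subunit, had 407, 343 and 265 CPM in naive, 206, 149 and 198 in C57Bl6, 447, 329 and 415 in RAG2KO and 509 and 536 in the lines. All C57Bl6 libraries are below all others, and its fall was the largest of any member in C57Bl6, at -0.88 (SE 0.19, edgeR adjusted p = 0.0133). Cox4nb, which is a subunit of an endoplasmic reticulum membrane complex, was the highest of the complex IV rows in C57Bl6 at 46.6, 47.7 and 32.4 CPM in naive and 56.9, 61.9 and 61.2 in C57Bl6 (log2 0.51, SE 0.17, edgeR adjusted p = 0.0709), which did not pass.

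In complex V, 2 of 17 members (11.8%) rose in RAG2KO against naive, below the 16.0% of all genes, and 5 (29.4%, beside 11.8% of all genes) against C57Bl6. The catalytic head did not rise: Atp5b, the beta subunit that makes ATP, had 1940, 1960 and 1640 CPM in naive, 1410, 1760 and 1740 in C57Bl6, 1570, 1140 and 1380 in RAG2KO and 1550 and 1870 in the lines. It was the lowest complex V member in RAG2KO, with all 3 libraries below naive and a log2 change of -0.44 that did not pass (SE 0.15, edgeR adjusted p = 0.0529). Atp5a1, the alpha subunit, was at -0.33 (adjusted p = 0.0655), with 1450, 1500 and 1330 CPM in naive and 1230, 984 and 1200 in RAG2KO. Per kilobase, Atp5b had the highest naive level of all members, 964 ± 93.6 CPM (SD, n = 3), and 712 in RAG2KO. Atp5j, coupling factor 6 of the stalk, rose: it had 230, 201 and 157 CPM in naive, 171, 185 and 164 in C57Bl6, 323, 282 and 270 in RAG2KO and 340 and 334 in the lines. All RAG2KO and SOX17OE libraries are above the rest, with log2 changes of 0.57 (SE 0.15, edgeR adjusted p = 0.0184) against naive, 0.75 (SE 0.15, adjusted p = 0.00832) against C57Bl6 and 0.78 (SE 0.16, adjusted p = 0.0181) for the SOX17OE mean. With the length trend removed the first was 0.28 and did not pass (edgeR adjusted p = 0.0623), while the others passed at 0.37 and 0.44. The stalk and membrane subunits Atp5h, Atp5j2 and Atp5l were higher in RAG2KO than in C57Bl6, by 0.59, 0.73 and 0.62, and against naive they stood at 0.48 to 0.57 without passing.

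Atp5s, which is no ATP synthase subunit despite its name, was the highest complex V row in RAG2KO. It had 10.1, 9.20 and 8.87 CPM in naive, 7.91, 8.47 and 7.78 in C57Bl6, 13.3, 14.5 and 14.6 in RAG2KO and 18 and 17.4 in the lines. Groups do not overlap, and the log2 rise was 0.59 (SE 0.15, edgeR adjusted p = 0.0162) against naive and 0.91 (SE 0.16, adjusted p = 0.0102) in the SOX17OE mean. Atp5g1, Atp5g2 and Atp5g3 encode the same mature c-ring subunit with different import sequences, and none of them passed in any comparison. Atp5g1 had 195, 192 and 136 CPM in naive, 138, 191 and 162 in C57Bl6, 203, 132 and 137 in RAG2KO and 149 and 197 in the lines. Atp5g2 had 306, 309 and 286 CPM in naive, 232, 288 and 255 in C57Bl6, 337, 266 and 343 in RAG2KO and 297 and 374 in the lines. Atp5g3 had 391, 370 and 263 CPM in naive, 331, 366 and 347 in C57Bl6, 438, 296 and 338 in RAG2KO and 427 and 412 in the lines. The naive, C57Bl6 and RAG2KO ranges overlap in all 3 genes, while both lines are above every C57Bl6 library for Atp5g2 and above every naive and C57Bl6 library for Atp5g3. The lowest complex V member in C57Bl6, the gamma subunit Atp5c1, had 371, 354 and 312 CPM in naive and 294, 292 and 283 in C57Bl6 (log2 -0.26, SE 0.12, edgeR adjusted p = 0.186).

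Levels were also summed by complex, with no test. Complex I members had 4170 ± 552 CPM in naive, 3650 ± 396 in C57Bl6 and 5020 ± 338 in RAG2KO (SD, n = 3 each), with 5200 in the constitutive and 6280 in the inducible line, and its naive and RAG2KO libraries overlap. Complex IV had 2980 ± 348, 2600 ± 264 and 3730 ± 328 CPM, with 3930 and 4230 in the lines, and its RAG2KO libraries are all above the naive ones. Complex III had 2150 ± 232, 1740 ± 99.7 and 2260 ± 260 CPM, and its C57Bl6 libraries are all below the naive ones. The highest of these, C57Bl6 replicate 2, stood at 1820 CPM, beside 1880 in the lowest naive library. Its sum includes Uqcrfs1 and Uqcrb on chromosome 13, whose genes were low in that library. Sums without them were not computed. Complex V had 6540 ± 686, 5890 ± 494 and 6360 ± 737 CPM, and its groups overlap. All members together took 1.35 to 2.18% of the counts of a library.

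**Figure D4:**
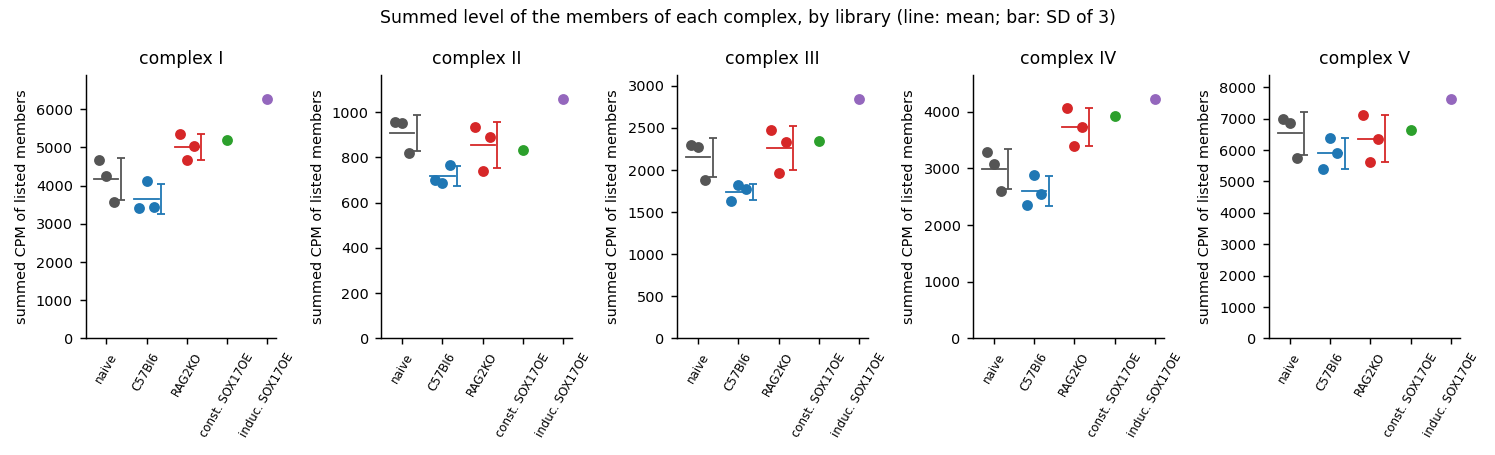
Summed CPM of the listed members of each complex, 1 point a library, with the vertical axis from 0, lines at means and bars for SDs of 3 libraries. Complex IV is higher in every RAG2KO and SOX17OE library than in any naive one, and the complex V groups overlap. Complexes II and III are lower in every C57Bl6 library than in any naive one. Both hold genes of chromosome 13, whose genes were low in C57Bl6 replicate 2.

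The 6 members that fell in C57Bl6 against naive are Cox7c, Uqcrfs1, Uqcrb, Ndufa6, Ndufs4 and Cox7a2l, and 4 of them (Cox7c, Ndufs4, Uqcrb and Uqcrfs1) lie on chromosome 13. The other 2 members on that chromosome, Ndufs6 and Sdha, stood at -0.42 and -0.46 without passing. In C57Bl6 replicate 2 the median of 344 genes of chromosome 13 was -0.76 relative to the naive mean, against 0.01 for 9774 genes of the other chromosomes. In C57Bl6 replicates 1 and 3 the chromosome 13 medians were -0.10 and -0.17. Without C57Bl6 replicate 2, 2 of the 6 falls remained, Cox7c at -0.74 (edgeR adjusted p = 0.0443) and Ndufa6 at -0.62 (adjusted p = 0.0398), and Uqcrfs1, Uqcrb, Ndufs4 and Cox7a2l stood at -0.56, -0.53, -0.48 and -0.37 without passing. Against C57Bl6, Cox7c, Uqcrb, Ndufs4 and Ndufs6 were still higher in RAG2KO without that library, at 0.98, 0.99, 0.78 and 0.83 (edgeR adjusted p of 0.0142, 0.0157, 0.0201 and 0.0328). Without naive replicate 1 or without naive replicate 2 none of the 6 falls passed.

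**Figure D5:**
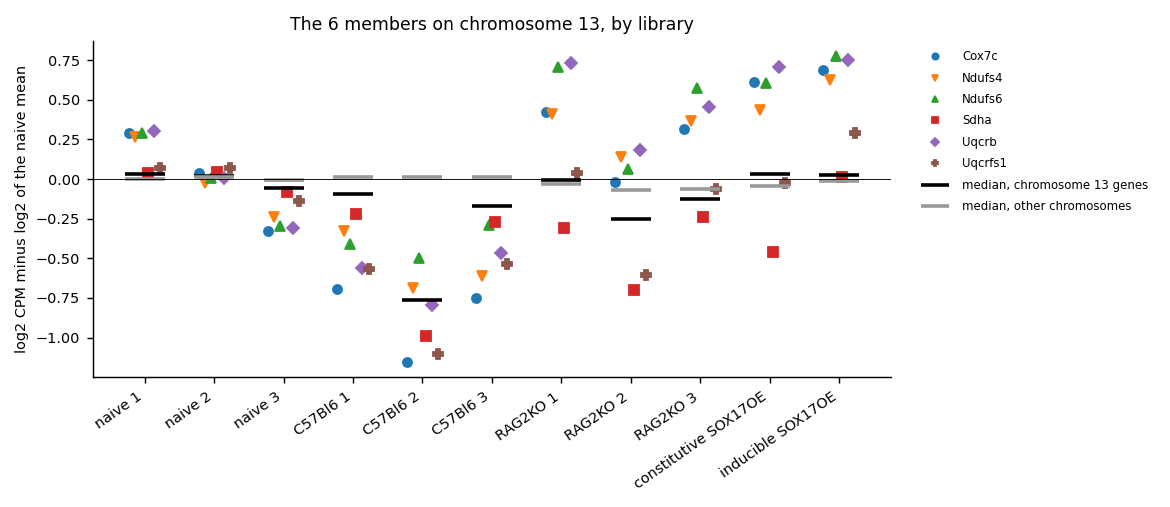
Coloured marks are the 6 members on chromosome 13 in each library, as log2 CPM minus log2 of the naive mean; black dashes are the medians of 344 chromosome 13 genes and grey dashes those of 9774 genes elsewhere. In C57Bl6 replicate 2 the black dash is at -0.76 and all 6 members are below 0, and in C57Bl6 replicates 1 and 3 they are below 0 too, with black dashes at -0.10 and -0.17.

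The SOX17OE constructs were represented by 1 library for each line, so the lines were tested only as a mean. That test assumes that they vary like the other groups. Sox17 stood at 72.7 CPM in the constitutive and 4.78 in the inducible line, with doxycycline treatment not stated. The members' medians relative to the naive mean were 0.24 and 0.54. Of the 81 members, 49 were above the highest naive library in both lines, where 25.3% of all genes were, and 1 was below the lowest naive library in both, where 23.0% of all genes were. The risers of the mean were 11 members named for complex I, Ndufa4 among them and none of the core, 2 of complex III (Uqcrb and Uqcrh), 5 of complex IV (Cox6c, Cox7a1, Cox7a2, Cox7a2l and Cox7b) and 2 of complex V (Atp5j and Atp5s). Ndufa7, Atp5s, Ndufa6, Cox6c, Atp5j and Ndufa4 had the smallest adjusted p. The lines differ for some members without a test: Uqcrq had 190 CPM in the constitutive and 388 in the inducible line, beside 235 to 287 in naive, and Ndufv1 had 118 and 200. With the length trend removed 7 rose, beside 6.58% of all genes, and 6 of the 20 calls remained (Atp5j, Atp5s, Cox6c, Cox7b, Ndufb2 and Ndufb4). With a coding length trend removed in its place, Ndufb2 and Ndufb4 lost the call.

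The Rn45s share, which separates RAG2KO from naive and C57Bl6 libraries, cannot be told apart from that group. With the share as a covariate no member passed in RAG2KO against naive, in RAG2KO against C57Bl6 or in the SOX17OE mean, and the members' medians were 0.20, 0.40 and 0.38. Of all genes, 0.955%, 0.00729% and 1.12% then rose, so few calls were left anywhere.

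The calls were also counted by promoter core. In RAG2KO against naive, 1 of 20 tested members with the NRF1 core and 15 of 47 without it rose, beside 16.0% of all genes, and in RAG2KO against C57Bl6 the counts were 5 of 20 and 24 of 47, beside 11.8%. Members with the YY1 core gave 2 of 11 and 6 of 11, and those with the ETS core gave 3 of 16 and 6 of 16. These differences were not tested. Nrf1 itself had 47.8, 51.9 and 50.5 CPM in naive, 47.8, 53.8 and 52.6 in C57Bl6, 37.1, 31.8 and 35 in RAG2KO and 32.0 and 32.1 in the lines. It fell by 0.53 on the log2 scale in RAG2KO (SE 0.12, edgeR adjusted p = 0.00842) and by 0.65 in the SOX17OE mean (SE 0.13, adjusted p = 0.0159). Of 19 tested regulators of mitochondrial biogenesis, none rose and 4 (21.1%) fell in RAG2KO against naive, where 16.0% of all genes rose and 13.3% fell: Nrf1, Gabpa, Ppargc1a (the coactivator PGC-1alpha) and Myc. Ppargc1a went from 12.2, 12.4 and 11 CPM to 6.34, 3.85 and 6.92 (log2 -1.06, SE 0.35, edgeR adjusted p = 0.0445), and Myc from 155, 163 and 221 to 80.8, 66.6 and 82.5 (log2 -1.23, SE 0.16, adjusted p = 0.000773). In C57Bl6 against naive, 1 of the 19 (5.26%, beside 5.85% of all genes), Tfb1m, fell.

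Of 19 genes of the pyruvate dehydrogenase complex and the citric acid cycle, none rose and 7 (36.8%, beside 13.3% of all genes) fell in RAG2KO against naive, 2 (10.5%, beside 5.85%) fell in C57Bl6, and 2 (10.5%, beside 12.2%) were lower in RAG2KO than in C57Bl6. Suclg2, a succinyl-CoA ligase subunit, had 162, 162 and 158 CPM in naive, 130, 109 and 115 in C57Bl6 and 114, 92.4 and 110 in RAG2KO, below naive in all 6 tumour libraries (log2 -0.61 in RAG2KO, SE 0.12, edgeR adjusted p = 0.00602). Dld, the dihydrolipoamide dehydrogenase, fell by 0.52 in RAG2KO and by 0.50 in C57Bl6. Of 15 genes of ubiquinone synthesis and electron entry, 1 (6.67%) rose and 6 (40.0%) fell in RAG2KO against naive, beside 16.0% and 13.3% of all genes, and 4 (26.7%, beside 5.85%) fell in C57Bl6. Coq5, a ubiquinone methyltransferase, had 48.0, 41.9 and 42.4 CPM in naive, 24.3, 29.8 and 31.6 in C57Bl6 and 24.5, 19.2 and 25.4 in RAG2KO (log2 -0.94 in RAG2KO, SE 0.16, edgeR adjusted p = 0.00256). Etfdh, which feeds electrons from fatty acid oxidation into ubiquinone, was the one that rose, by 0.44 (SE 0.12, edgeR adjusted p = 0.0199). These lists, that of the biogenesis regulators and those below were not counted with the length trend removed or with the Rn45s covariate. In RAG2KO against naive, other genes with transcripts over 4000 bases had a median of -0.26. With the Rn45s covariate 0.124% of all genes fell. Whether the falls in these lists follow length or that share was not tested.

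Assembly factors of complex IV went both ways, with 5 of 19 higher and 5 lower (26.3% each, beside 16.0% and 13.3% of all genes) in RAG2KO against naive. Against C57Bl6, 7 were higher (36.8%, beside 11.8%) and 3 lower (15.8%, beside 12.2%). Lrpprc, which stabilises mitochondrial messenger RNA, had 82.9, 83.6 and 70.6 CPM in naive and 55.5, 36.5 and 39.5 in RAG2KO (log2 -0.85, SE 0.16, edgeR adjusted p = 0.005). Cox17, a copper chaperone, was higher in RAG2KO than in C57Bl6, with 120, 117 and 122 against 68.9, 78.1 and 61.7 CPM (log2 0.78, SE 0.13, edgeR adjusted p = 0.00434). Assembly factors of complex I gave none higher and 3 of 14 lower (21.4%, beside 13.3% of all genes) in RAG2KO against naive, with Ecsit the first at -1.11 (SE 0.19, edgeR adjusted p = 0.00292). The lists for complexes II, III and V gave 2 of 4, 1 of 6 and 0 of 3 higher, and 0, 1 and 0 lower. Protein import genes gave 2 of 21 higher (9.52%, below the 16.0% of all genes) and 3 lower (14.3%, near the 13.3% of all genes). Hspa9, the mitochondrial Hsp70, was 1 of the 3, at 1210, 1240 and 1220 CPM in naive and 682, 517 and 630 in RAG2KO. Glycolysis gave 2 of 16 higher (12.5%, beside 16.0%) and 5 lower (31.2%, beside 13.3%), with the glucose transporter Slc2a1 at -1.52 (SE 0.22, edgeR adjusted p = 0.00151).

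Ribosomal protein genes gave smaller medians and fewer calls, though the cytosolic median was close to that of the members in the SOX17OE mean. Of 81 cytosolic ribosomal protein genes, 3 rose in RAG2KO against naive, 18 in RAG2KO against C57Bl6 and 11 in the SOX17OE mean, beside 16.0%, 11.8% and 6.77% of all genes, with none lower in any of these and medians of 0.17, 0.33 and 0.36. Of 76 mitochondrial ribosomal protein genes, 4, 10 and 5 rose and 3, 0 and 0 fell, with medians of 0.03, 0.15 and 0.20. The oxidative phosphorylation members gave 18, 33 and 20 of 81 higher and medians of 0.27, 0.42 and 0.40. The differences between these lists were not tested, and the lists were not matched for transcript length.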

How the data were processed

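The authors deposited 1 table of expected counts for 23224 gene names in 11 libraries. Per the submitters' processing notes, Bowtie, RSEM and the genome build mm9 were used, with versions and annotation not given in the sources used here. A PureLink kit yielded the RNA and poly(A)-selected NEBNext Ultra II Directional libraries followed, per the labels' protocols. RSEM divides reads between similar sequences: 79 of the 87 members have non-whole expected counts in some library, so a share of their reads may belong to pseudogene copies.

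Expected counts were rounded and tested with edgeR 4.0.16 in R 4.3.3 (filterByExpr, TMM scaling, robust quasi-likelihood fit, 5 groups). Each SE is |log2 fold change| / sqrt(F). CPM use TMM-scaled totals. The test was run on simulated data with a spread set below the one estimated here (common dispersion 0.0641). That run therefore does not give the error rate or power in these data. Transcript lengths are from GENCODE vM21 (the transcript with the longest coding region) and chromosomes and promoters from RefSeq GRCm38.p6, a later build than mm9, matched by gene name, with no coordinates taken from the count table; 94.4% of tested genes have a length. Alternatives were scaling, filters, DESeq2 1.42.0, limma 3.58.1 voom, a replicate block, single libraries left out, an Rn45s covariate, chromosome 13 left out, and trends with length or GC content removed. Members and gene lists were chosen with earlier results of these data known. Genes given in every library are the called members with the 6 smallest adjusted p in each direction, the highest and lowest member of each complex in each tumour comparison with naive, Sdh and Atp5g genes and isoform pairs; Uqcrq and Ndufv1 in the SOX17OE lines were named after their values were seen. Single values of 1 member and 1 marker gene are not reported here. From the related lists, the first 4 called by adjusted p could be named.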

Additional observations from a re-analysis of the deposited data

Results flagged for a closer look

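The 34 members below differ between the tumour groups by a direct test, so each had a different change from naive in RAG2KO than in C57Bl6 organoids. As log2 differences, RAG2KO minus C57Bl6, complex I, with Ndufa4 counted there by its name, gave Ndufa6 1.20, Ndufa7 0.88, Ndufs6 0.87, Ndufs4 0.85, Ndufb2 0.82, Ndufb3 0.80, Ndufa3 0.73, Ndufa4 0.63, Ndufa1 0.62, Ndufb11 0.60, Ndufc2 0.57, Ndufb5 0.55, Ndufb4 0.55, Ndufa2 0.54, Ndufb9 0.48, Ndufv3 0.47, Ndufa13 0.44 and Ndufa9 0.42. Complex III gave Uqcrb 1.08, Uqcrh 0.95 and, in the other direction, Uqcrc1 -0.50. Complex IV gave Cox7a1 1.55, Cox7c 1.11, Cox7a2l 0.81, Cox6c 0.81, Cox7a2 0.79, Cox7b 0.71, Cox6b1 0.54 and Cox8a 0.50. Complex V gave Atp5s 0.81, Atp5j 0.75, Atp5j2 0.73, Atp5l 0.62 and Atp5h 0.59. Among them Ndufa6 and Cox7a2l were called in opposite directions against naive.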

How the results depend on the processing

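Each member call was recomputed under up to 25 settings. Of 1971 values, 1549 kept their direction and call, 421 lost the call and 1 reversed: Cox8a in RAG2KO against C57Bl6, at -0.036 with a coding length trend removed. None of the 80 calls was kept in every setting. Below, counts of members are given as higher and lower.

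Upper quartile scaling gave 1 lower in RAG2KO against naive and 0 lower in RAG2KO against C57Bl6, and library totals gave 5 and 2 lower. Of all genes, 10.6% and 8.38% were lower with upper quartile scaling and 16.9% and 16.5% with library totals. DESeq2 gave 1 and 11 in C57Bl6 against naive, beside 11.8% and 8.24% of all genes. In RAG2KO against naive it gave 28 and 4, beside 18.5% and 14.7%, and in the SOX17OE mean 35 higher, beside 10%. Voom gave 1 and 23, 30 and 7, and 38 higher. Of all genes, voom called 16.6% and 13.2%, 21.2% and 18.2%, and 15.2% higher. Both tests thus called larger shares of all genes than the main fit. Fits on only the groups compared gave 0 lower in RAG2KO against C57Bl6, beside 8.85% of all genes. With the Rn45s covariate the counts were 1 lower in C57Bl6 against naive, 0 and 0 in RAG2KO against naive, 0 and 0 in RAG2KO against C57Bl6, and 0 higher in the SOX17OE mean. Upper quartile scaling also moved the median of all genes to 0.10 in RAG2KO against C57Bl6, where the members' median was 0.52. Without chromosome 13 genes 3 were lower in C57Bl6, beside 5.98% of all genes. With the length trend removed the counts were 11 and 8 in RAG2KO against naive, 16 and 2 against C57Bl6, and 7 higher in the SOX17OE mean. Of all 13720 genes, 2337 and 1303, 1578 and 1132, and 903 higher were then called. With the coding length trend removed there were 1 higher in C57Bl6, 8 and 16 higher in the RAG2KO comparisons and 6 higher in the SOX17OE mean. Of all 13720 genes, 1385, 2331, 1563 and 849 were then higher. These 2 length settings and the GC trend were chosen after seeing the data. The cause of these moves was not tested.

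With 1 library left out, counts ranged from 0 to 8 lower in C57Bl6 against naive, from 8 to 25 higher and 0 to 3 lower in RAG2KO against naive, from 17 to 40 higher and 0 to 2 lower in RAG2KO against C57Bl6, and from 0 to 24 higher in the SOX17OE mean. The falls in C57Bl6 numbered 0 with naive replicate 1 or 2 left out, 2 with C57Bl6 replicate 2 left out and 1 with C57Bl6 replicate 3 left out. The shares of all genes that fell were then 3.11%, 2.61%, 4.04% and 3.49%. The rises in RAG2KO against naive numbered 8 without naive replicate 2 and 10 without naive replicate 3, beside 8.71% and 11.1% of all genes. The rises against C57Bl6 numbered 18 when C57Bl6 replicate 1 was dropped and 17 when C57Bl6 replicate 3 was, beside 9.08% and 6.69% of all genes. Where this left an arm with 1 library, that library was assumed to vary like the other groups.

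Replicate numbers did not pair the samples: deviations of same-numbered libraries correlated at -0.192 to 0.18. With the replicate block the counts were 0 and 6, 18 and 1, and 33 and 0 in the 3 comparisons of tumour and naive groups. Of all genes, 8.39% and 5.25%, 15.3% and 11.8%, and 11.1% and 9.98% were then higher and lower. The lines share no numbers, so no block was possible there.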
